A study of Homo sapiens with 3 samples.

Results

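The 8q24 MYC and PVT1 domain was taken as chr8:126000001-130000000 on hg19, and its members were the peak intervals of H3K27ac and H3K4me3 that lay inside these limits. They came from chromatin immunoprecipitation followed by sequencing (ChIP-seq) in untreated H2087 cells, an established human lung adenocarcinoma cell line. The series had 1 library for H3K27ac, 1 for H3K4me3 and 1 input of chromatin without immunoprecipitation, which was not analysed here. With 1 library per mark (n = 1), no value had a replicate and no test was made. The window held 308 of 24096 distinct H3K27ac intervals and 97 of 18585 distinct H3K4me3 intervals, or 405 of 42681 in all, and no interval crossed a limit. The window was selected on measured values, since its density of intervals was known when it was chosen, so density, width and −log10 q are given as a description. The −log10 q was the value of the last column of each list, read as the strength that the peak caller gave an interval. Intervals in parentheses are 95% intervals and cover counting error only, and the depth of both libraries is unknown here.

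Of the 2 marks, trimethylation of lysine 4 on histone H3 (H3K4me3) typically marks promoters in use, whereas acetylation of lysine 27 (H3K27ac) marks both promoters and enhancers that are active. MYC encodes a transcription factor that drives growth and proliferation and is often amplified or overexpressed in cancer. It lies in a region with few other protein-coding genes, next to the long non-coding RNA (lncRNA) gene PVT1, and enhancers over long distances on both sides are known to contact its promoter in different tissues.

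H3K27ac intervals occurred at 77.0 per Mb in the window and at 7.76 per Mb in the rest of chromosome 8 beyond 30 Mb, a density ratio of 9.92 (8.68 to 11.3). For H3K4me3 the densities were 24.3 and 6.61 per Mb, a ratio of 3.67 (2.94 to 4.54). There were thus 3.18 H3K27ac intervals for each H3K4me3 interval in the window (2.52 to 4.03), against 1.17 in the rest of the chromosome and 1.297 in the whole lists. H3K27ac covered 3.69% of the window and H3K4me3 1.22%, compared with 0.275% and 0.255% of the rest. The 4 Mb below the window held 100 H3K27ac and 59 H3K4me3 intervals and the 4 Mb above it 28 and 14, so both flanks were less dense than the window. The ratio to these flanks alone was 4.81 for H3K27ac and 2.66 for H3K4me3. The number of intervals and their −log10 q can also depend on local DNA copy number. Copy number was not measured here, and its part in the densities, the −log10 q values and the ranks given for this window was not tested.

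The intervals were clustered. When intervals of either mark within 100 kb of each other were joined, 9 blocks were formed, and 3 of them were longer than 100 kb. These 3 blocks took up 39.9% of the window and held 298 of the 308 H3K27ac and 94 of the 97 H3K4me3 intervals. Only intervals inside the window were joined and counted. The first block ran over 715 kb from SQLE past TRIB1 and held 98 H3K27ac and 24 H3K4me3 intervals. Intervals of both marks lay within 100 kb of it below the lower limit, so this block was cut by the limit. The middle block, of 271 kb around LRATD2 and the start of PCAT1, held 41 and 11. The last began at MYC, ran over 611 kb to beyond the end of PVT1 and held 159 and 59, more than the other two together for either mark. Without this last block, the density ratio to the rest of chromosome 8 was 5.66 for H3K27ac and 1.70 for H3K4me3.

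Of the 40 bins of 100 kb, 17 had no H3K27ac and 20 no H3K4me3 interval. The 3 fullest bins for both marks lay over PVT1. The bin chr8:128800001-128900000 held 52 H3K27ac and 24 H3K4me3 intervals, chr8:129100001-129200000 held 38 and 14, and chr8:128900001-129000000 held 38 and 13. The longest stretch without an interval of either mark, 421 kb at chr8:128324208-128745632, ended just before MYC. MYC therefore lay at the edge of its block. With intervals placed by their centre, the 100 kb before the MYC start held 1 H3K27ac and no H3K4me3 interval, the 100 kb after it 26 and 10, and the next 100 kb 55 and 28. The H3K4me3 interval over the MYC start, counted after it, began before it at 128747131.

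**Figure D1:**
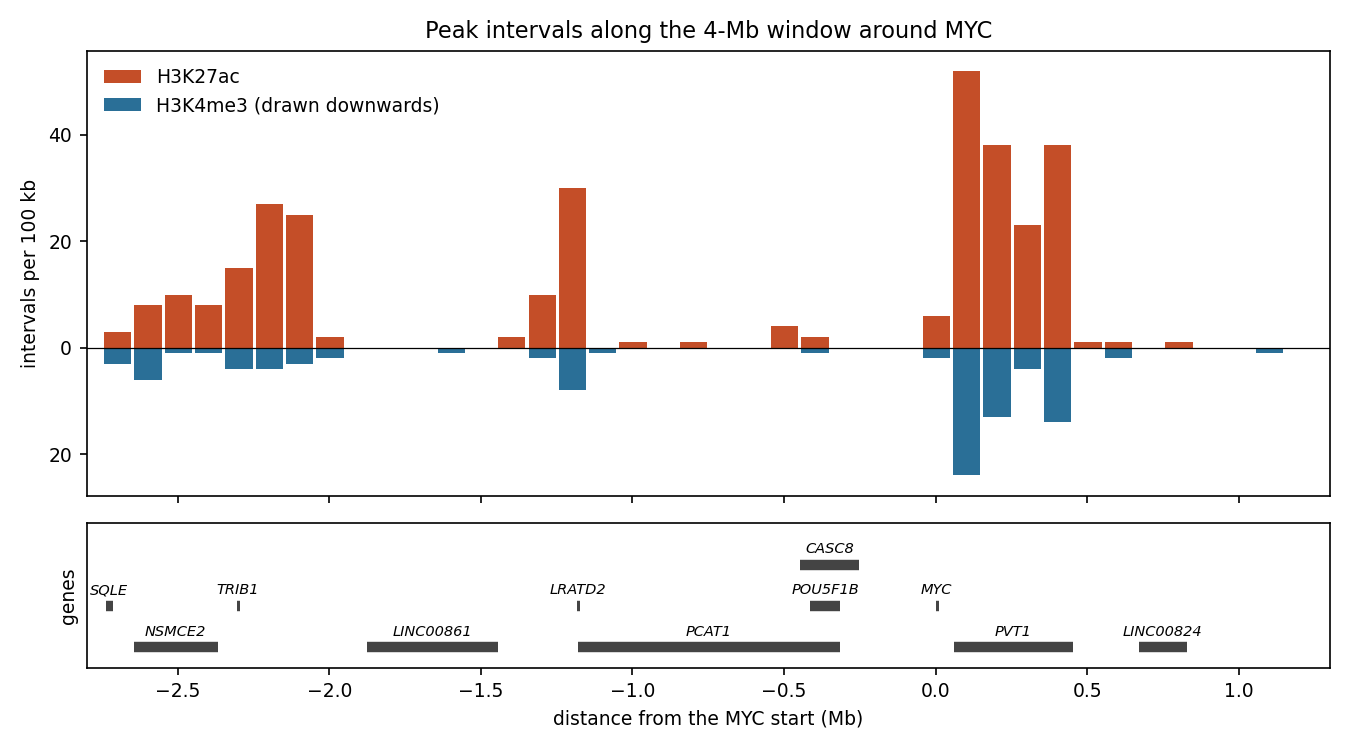
Number of H3K27ac intervals (bars upwards) and H3K4me3 intervals (bars downwards) in bins of 100 kb, against the distance of the bin centre from the MYC start in Mb, with genes of the window drawn below. The intervals form 3 groups, around TRIB1, around LRATD2 and from MYC over PVT1, where the highest bin holds 52 H3K27ac and 24 H3K4me3 intervals.

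At MYC (ENSG00000136997, chr8:128747680-128755197, plus strand), 2 H3K4me3 intervals were present. The first, chr8:128747131-128748376, was 1246 bp wide with a −log10 q of 13.1, covered the outer annotated gene start and shared no base with H3K27ac. The second, chr8:128748599-128752873, was 4275 bp wide with 12 summits and a −log10 q of 12.3, and reached from exon 1 into exon 3 of the canonical transcript. It was the widest H3K4me3 interval of the window and of the whole list. The canonical transcript starts at 128748477, between these 2 intervals.

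Of the H3K27ac intervals at MYC, 4 lay past both of these starts and overlapped the gene. The first of them began at 128748580, close to the canonical start at 128748477. The widest H3K27ac interval there, chr8:128748580-128750746, was 2167 bp wide with a −log10 q of 6.37, overlapped exons 1 and 2 and shared 2148 bp with the second H3K4me3 interval. Smaller intervals followed at chr8:128751056-128751418 (−log10 q 3.11), chr8:128752191-128752455 (7.21) and chr8:128752652-128753034 (4.70), all of them overlapping the same H3K4me3 interval. One further H3K27ac interval of 186 bp (3.72) lay 1862 bp before the gene start. CASC11, a lncRNA gene on the minus strand, starts inside MYC at 128751233, so its start and the body of MYC cannot be told apart in these intervals. By −log10 q, the strongest H3K27ac interval at MYC ranked 34 among the 308 and lay above 98.2% of the whole H3K27ac list. The 2 H3K4me3 intervals at MYC ranked 4 and 7 among the 97 and lay above 99.5% and 99.3% of theirs.

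PVT1 (ENSG00000249859, chr8:128806772-129199347, plus strand, 393 kb) carried 149 H3K27ac and 55 H3K4me3 intervals, which covered 76.6 and 22.02 kb of it. At its start, an H3K4me3 interval of 2790 bp (chr8:128806792-128809581, −log10 q 8.63) lay with an H3K27ac interval of 1158 bp within 1 kb. The highest −log10 q among the 2 H3K27ac intervals within 1 kb of this start was 4.63. Further from the start, the same H3K4me3 interval overlapped the H3K27ac intervals chr8:128808210-128808985 (−log10 q 7.48) and chr8:128809202-128809720 (8.98). Both marks were therefore present at the PVT1 start, at values below the highest of each mark within the gene (20.8 and 15.6).

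Over PVT1 the counts of the 2 marks ran alike, while their −log10 q did not. In 4 consecutive parts of 98.1 kb, from 5′ to 3′, H3K27ac had 53, 35, 24 and 37 intervals and H3K4me3 25, 12, 4 and 14. Both counts were lowest in the third part. The median −log10 q of H3K27ac in these parts was 3.94, 3.45, 2.58 and 4.99, highest at the 3′ end. That of H3K4me3 was 3.52, 3.11, 2.89 and 2.07, lowest at the 3′ end, and rested on few intervals past the first part. In the last part 18 of the 37 H3K27ac intervals had a −log10 q of at least 5, as did 28.9% of those in the window and 8.84% of the whole list. None of the 14 H3K4me3 intervals there did, against 33.0% in the window and 16.7% of the whole list, and 13 of the 14 shared bases with H3K27ac. Each share is read against its own list, since the value is not comparable between the libraries.

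The H3K27ac interval with the highest −log10 q of the window, 20.8, lay in this last part at chr8:129186446-129187368, in an intron of PVT1 and 439 kb past the MYC start. It was 923 bp wide and shared no base with H3K4me3. In the first part, the H3K27ac intervals chr8:128864983-128866555 (1573 bp, −log10 q 13.5) and chr8:128867133-128868918 (1786 bp, 10.1) lay next to each other 118 and 120 kb past the MYC start, and both overlapped H3K4me3. H3K4me3 was strongest within PVT1 at chr8:128822188-128822458, which was only 271 bp wide but had a −log10 q of 15.6, and at chr8:128872426-128873650 (1225 bp, 12.9). In the next part, the short H3K27ac interval chr8:128931192-128931452 (261 bp, 12.2) was without H3K4me3. Width and −log10 q thus did not rank the intervals alike. Among the widest of H3K27ac, chr8:129180896-129183069 (2174 bp) and chr8:128924049-128926216 (2168 bp) reached only 7.07 and 7.18.

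**Figure D2:**
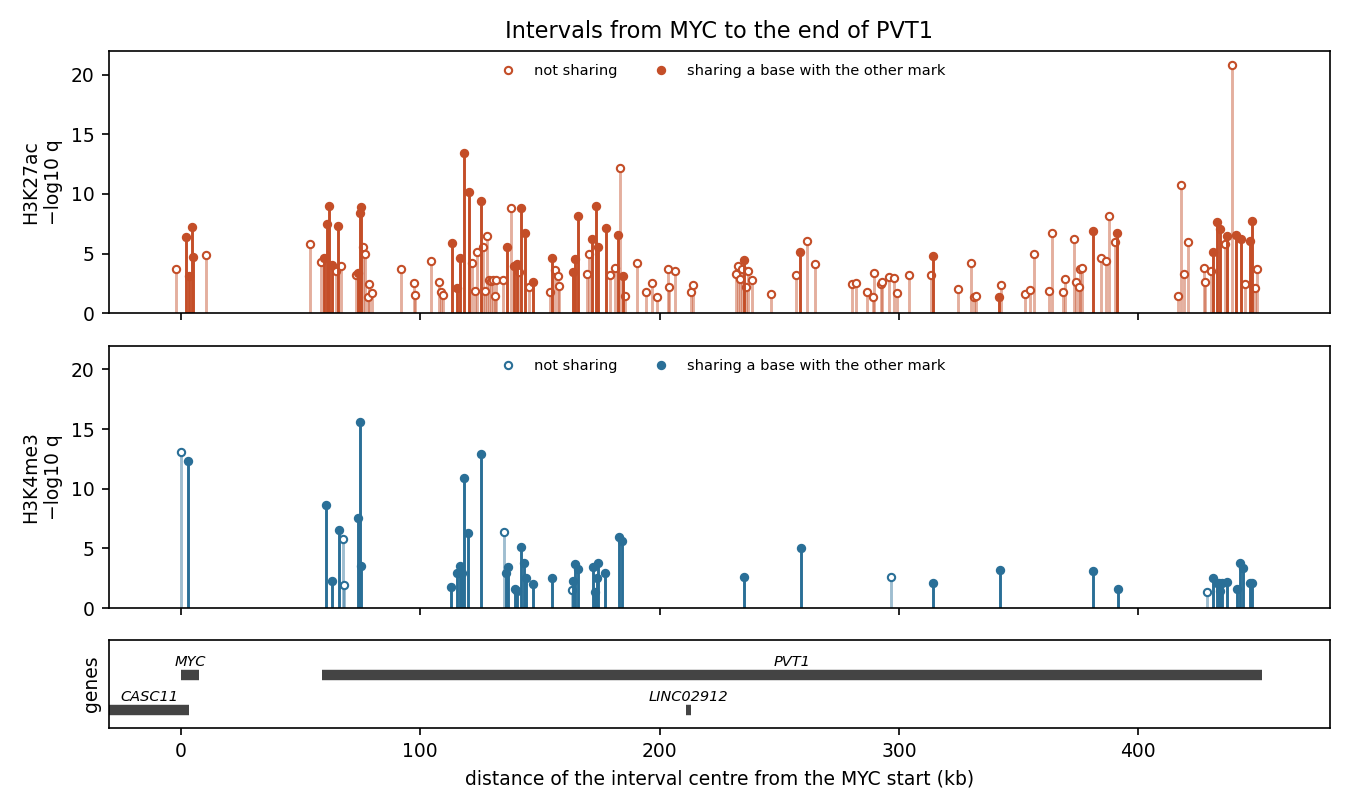
Highest −log10 q of each H3K27ac (top) and H3K4me3 (middle) interval against the distance of its centre from the MYC start in kb, with genes below; filled points share at least 1 base with the other mark and open points do not. The highest H3K27ac point (20.8) stands 439 kb from the MYC start and is open, while the H3K4me3 points there stay below 5.

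Most protein-coding genes of the window were marked at their starts. An interval within 1 kb of the start was found for both marks at 6 of 7 genes (85.7%, 42.1 to 99.6). These were SQLE, WASHC5, NSMCE2, TRIB1, LRATD2 and MYC, and POU5F1B had neither mark there. WASHC5 and NSMCE2 were counted from the same intervals. In the rest of chromosome 8 beyond 30 Mb, 27.6% of 493 protein-coding starts had both marks (23.7 to 31.8), and over all chromosomes 18.6% of 20163 did. Among all 54 annotated gene starts of the window 16 had H3K27ac (29.6%, 17.98 to 43.6) and 13 had H3K4me3 (24.1%, 13.5 to 37.6), and the 13 were among the 16. In the rest of chromosome 8 these shares were 12.7% and 20.2%.

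LRATD2 (ENSG00000168672), whose product belongs to a family with an LRAT domain, and the start of PCAT1, a lncRNA gene described in prostate cancer, had the strongest H3K4me3 interval of the window. It was chr8:127565805-127569945, 4141 bp wide with a −log10 q of 16.1. It overlapped the widest H3K27ac interval, chr8:127567145-127569948, of 2804 bp and a −log10 q of 14.7, over all but 3 of its bases. The starts of the 2 genes lie on opposite strands and close together, so these intervals cannot be assigned to one of them.

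TRIB1 (ENSG00000173334), which encodes a pseudokinase that directs proteins to degradation, had at its start an H3K4me3 interval of 1714 bp (chr8:126442659-126444372, −log10 q 11.97) and an H3K27ac interval of 1309 bp with a −log10 q of 6.46. The intervals with the highest H3K27ac values of this block lay away from its start. The strongest, chr8:126509621-126510394 (774 bp, −log10 q 12.3), was 67.0 kb from the TRIB1 start in an intron of the unnamed lncRNA gene ENSG00000253111, and had no H3K4me3. SQLE (ENSG00000104549), which encodes squalene epoxidase of cholesterol synthesis, had the H3K4me3 interval chr8:126009791-126010501 (711 bp, 13.8) before its start, over its divergent lncRNA SQLE-DT. The gene itself carried 2 more H3K4me3 intervals, with a highest −log10 q of 12.9, and the nearer began 86 bp past its start. The 2 H3K27ac intervals within 1 kb of the SQLE start reached only 3.07. NSMCE2 (ENSG00000156831), a SUMO ligase of the SMC5/6 complex, and WASHC5 (ENSG00000164961), a subunit of the WASH complex on endosomes, start close together on opposite strands. An H3K4me3 interval of 1662 bp (chr8:126103499-126105160, 9.57) covered both starts and lay over an H3K27ac interval of 281 bp (4.64). NSMCE2 carried 23 H3K27ac and 7 H3K4me3 intervals over its 275 kb.

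Between the LRATD2 block and MYC, the loci known for inherited cancer risk held few intervals. POU5F1B, a retrogene related to the pluripotency factor gene POU5F1, and the lncRNA genes PRNCR1 and CCAT2 had no interval of either mark. CASC19 carried 4 H3K27ac intervals and no H3K4me3. CASC8 carried 2 H3K27ac intervals and 1 H3K4me3 interval with a −log10 q of 9.86, which lay over an exon of PCAT1. All these intervals of CASC19 and CASC8 also lay within PCAT1, which spans 863 kb, so they cannot be assigned to one gene. LINC00861 had 1 H3K4me3 and LINC00824 1 H3K27ac interval over their whole length. LINC02912, inside PVT1, had 1 H3K27ac interval with a −log10 q of 1.77. Of the microRNA genes in PVT1, MIR1205 and MIR1208 had no interval over them, and MIR1207 lay under an H3K27ac interval of 425 bp (3.18). A gene without an interval cannot be told from one with too few reads.

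The marks overlapped unequally. Of the 97 H3K4me3 intervals, 79 shared at least 1 base with H3K27ac (81.4%, 72.3 to 88.6), against 31.8% in the rest of chromosome 8 and 31.1% in the whole list. Of the 308 H3K27ac intervals, 78 shared a base with H3K4me3 (25.3%, 20.6 to 30.6), against 27.5% in the rest of chromosome 8 and 24% in the whole list. The share of H3K4me3 was thus above the background and that of H3K27ac near it. A higher density of H3K27ac also leaves more bases to overlap by position, and its part in this share was not tested. By length, the marks had 34.5 kb in common, which was 70.5% of the length under H3K4me3 and 23.4% of that under H3K27ac. In the rest of chromosome 8 these shares were 24.8% and 23.0%.

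Within the window, H3K27ac intervals with H3K4me3 were wider and stronger than those without, with a median of 615 bp (414 to 757) against 294 bp (276 to 333) and a −log10 q of 5.60 against 3.28. The 79 shared H3K4me3 intervals had a median width of 311 bp (267 to 362) and the 18 others one of 219 bp (186 to 245). In the rest of chromosome 8, shared H3K27ac intervals were also wider and stronger (371 against 273 bp, −log10 q 2.96 against 2.45). Shared H3K4me3 intervals there were also wider (386 against 281 bp). A wider interval also has more bases that can overlap.

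Most members were far from the starts of protein-coding genes. Only 14 H3K27ac intervals lay within 3 kb of a protein-coding gene start (4.55%, 2.51 to 7.51), compared with 29.6% in the rest of chromosome 8 and 30.5% in the whole list. For H3K4me3, 11 intervals did (11.3%, 5.80 to 19.4), against 53.7% and 60.2%. Without the block of MYC, these shares of the window were 8.05% and 23.7%. The window held 7 protein-coding starts, so few positions near a start were available. The median distance to such a start was 129 kb for H3K27ac and 135 kb for H3K4me3, against 20.5 and 2.03 kb in the rest of the chromosome. Over 50 kb from any protein-coding start lay 254 H3K27ac (82.5%) and 79 H3K4me3 intervals (81.4%).

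H3K4me3 away from protein-coding starts still lay with H3K27ac. Of the 86 H3K4me3 intervals over 3 kb from a protein-coding start, 69 shared bases with H3K27ac (80.2%, 70.2 to 88.0), against 25.6% (21.1 to 30.5) of the 344 such intervals in the rest of chromosome 8. Of the 86, 13 lay within 1 kb of another annotated transcript start, such as that of PVT1, and all 13 were shared. The 73 that also lay over 1 kb from any transcript start were shared in 56 cases (76.7%, 65.4 to 85.8), against 19.2% (14.4 to 24.7) of 240 in the rest of chromosome 8. These 73 had a median width of 258 bp and a median −log10 q of 2.57. The 23 H3K4me3 intervals within 1 kb of any transcript start, none of them among the 73, had medians of 787 bp and 8.63, and 22 of these 23 were shared.

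Introns of lncRNA genes held 173 H3K27ac intervals (56.2%, 50.4 to 61.8) and 58 H3K4me3 intervals (59.8%, 49.3 to 69.6). In the rest of chromosome 8 they held 9.06% and 6.06%. Exons of protein-coding genes held 3.57% and 9.28% in the window, against 22.02% and 37.4%. PVT1 alone covered 393 kb of the window, and 128 of the 173 and 47 of the 58 intervals in lncRNA introns lay in it.

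**Figure D3:**
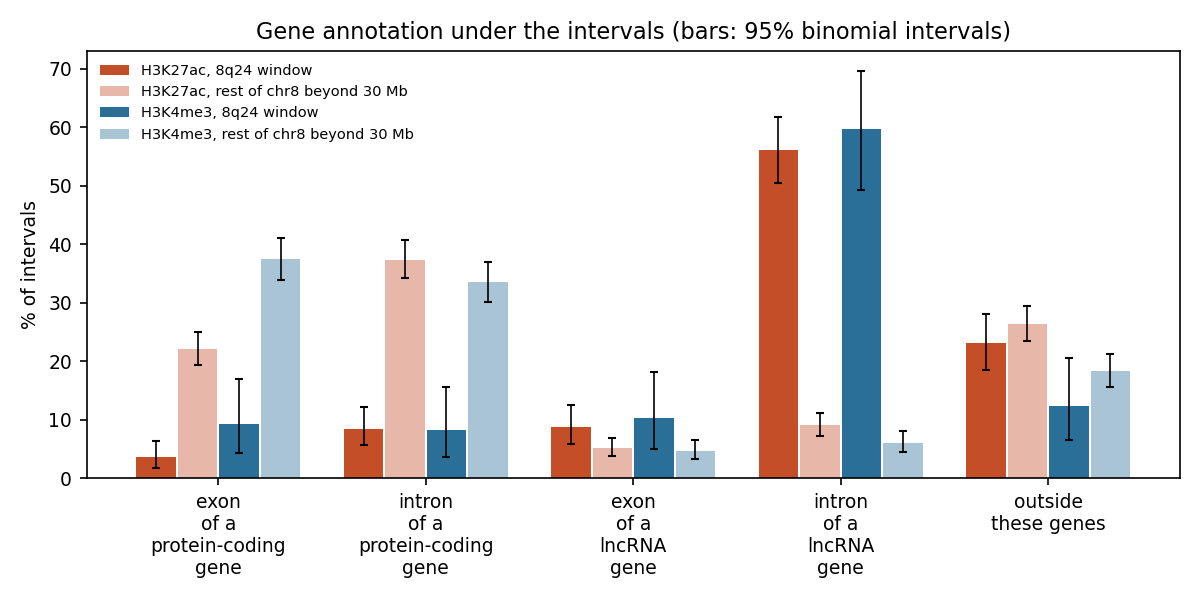
Share in percent of the H3K27ac and H3K4me3 intervals of the window (dark) and of the rest of chromosome 8 beyond 30 Mb (light) in each class of gene annotation, with lines for exact binomial 95% intervals. Introns of lncRNA genes hold 56.2% and 59.8% in the window, against 9.06% and 6.06% in the rest.

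The values on which the window was chosen were as follows. The median width of H3K27ac intervals was 355 bp (311 to 381), against 290 bp in the rest of chromosome 8, and that of H3K4me3 284 bp (252 to 343) against 304 bp. The median −log10 q was 3.70 (3.43 to 3.98) against 2.59 for H3K27ac and 3.26 (2.54 to 3.77) against 2.97 for H3K4me3. A −log10 q of at least 5 was reached by 89 H3K27ac intervals (28.9%), where 8.84% of the whole list did, and by 32 H3K4me3 intervals (33.0%), where 16.7% did. At least 1 kb was spanned by 26 H3K27ac intervals (8.44%, whole list 1.28%) and 9 H3K4me3 intervals (9.28%, whole list 2.25%). More than 1 summit was listed for 86 H3K27ac (27.9%, whole list 3.71%) and 20 H3K4me3 intervals (20.6%, whole list 7.01%). For H3K4me3 both medians were thus within counting error of the rest, while the share at or above 5 was higher. The ratio of the median H3K27ac width to that of the rest of chromosome 8 was 1.22 (1.07 to 1.32). Without the block of MYC it was 1.12 (0.984 to 1.26), an interval that contains 1. The highest H3K4me3 value was not in the window, with 16.1 there against 25.2 in the rest of chromosome 8. The median gap to the next interval was 0.929 kb against 8.68 kb for H3K27ac and 2.31 kb against 29.5 kb for H3K4me3.

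**Figure D4:**
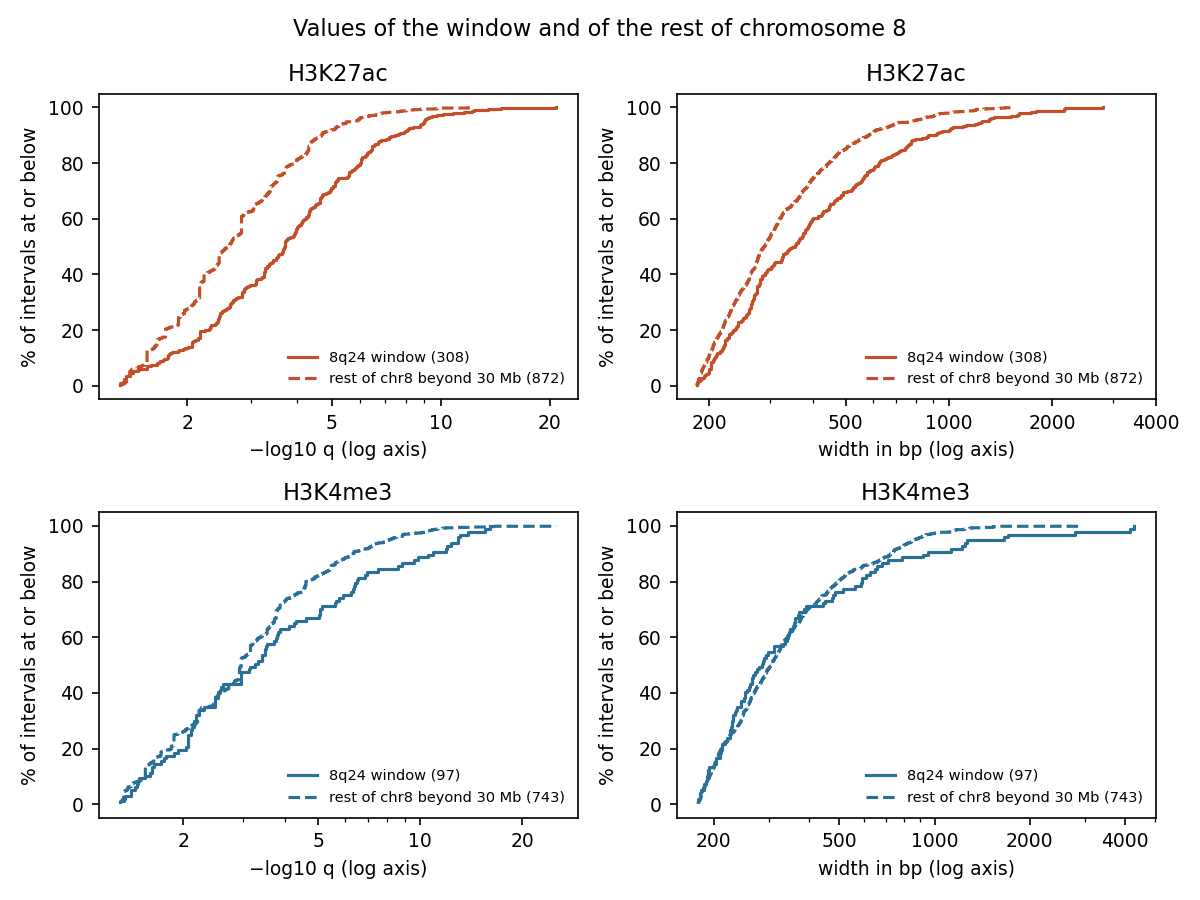
Cumulative share in percent of intervals at or below a given −log10 q (left) and width in bp (right), both on log axes, for H3K27ac (top) and H3K4me3 (bottom), in the window (solid) and in the rest of chromosome 8 beyond 30 Mb (dashed). The H3K27ac curves of the window lie to the right throughout most of their range (medians 3.70 against 2.59), while the H3K4me3 widths cross (medians 284 and 304 bp).

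The limits of the window did not divide a dense group of intervals at the upper side. The last H3K27ac interval inside it (261 bp, −log10 q 1.55) was 430 kb from the upper limit, and the first outside (329 bp, 1.91) was 837 kb past it. For H3K4me3 these were 165 kb (179 bp, 1.88) and 721 kb (191 bp, 2.23). At the lower limit the first H3K27ac interval inside was 9.83 kb (276 bp, 3.07) and the last outside 14.2 kb away (221 bp, 2.82). The H3K4me3 intervals there were 9.79 kb inside (711 bp, 13.8) and 7.81 kb outside (430 bp, 3.44).

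Stitched regions were formed by joining H3K27ac intervals separated by at most 10 kb, the usual first step in describing clustered enhancers. The window held 27 of 4606 such regions with at least 2 intervals, and they contained 294 of its 308 H3K27ac intervals. The share of the whole list in such regions was not computed, so the 294 cannot be read against it. In the whole list the median gap to the next H3K27ac interval was 10.4 kb, close to the joining distance. Ranked over the genome by the length under intervals, 3 regions of the window were in the first 10 and 7 in the first 50. All 3 lay in PVT1. The first of the genome, chr8:128839451-128961587, had 63 H3K27ac intervals with 36.3 kb under them, and 28 H3K4me3 intervals. The one of rank 8, chr8:129027775-129139364, had 37 intervals with 14.2 kb, but 5 H3K4me3 intervals. The one of rank 10, chr8:129163994-129197379, lay 416 to 450 kb past the MYC start and had 20 intervals with 12.8 kb and 12 H3K4me3 intervals. It was 33.4 kb long, the shortest of the 3, and held the interval with the highest −log10 q. The region at MYC itself ranked 215, with 6 intervals and 3.57 kb.

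Windows of 4 Mb were laid along all chromosomes from position 2000001, a grid on which this window is exactly 1 tile. Other dense groups of intervals may be cut by this grid. Among the 759 windows, some of them without any interval, this one held the most H3K27ac intervals, with 308 against a median of 15. It ranked 18 for H3K4me3. In 97 windows each mark had at least 50 intervals. Among these the 8q24 window had the highest ratio of H3K27ac to H3K4me3 (3.18, median 1.39) and the most H3K27ac intervals per protein-coding start (44, median 1.73). It also had the highest share of H3K4me3 intervals that overlapped H3K27ac (81.4%, range 15.1 to 81.4) and the lowest shares near a protein-coding start (4.55% and 11.3%, medians 35.0 and 66.4). In chr12:50000001-54000000, also among the 97, this overlap was 70.8%. The limit of 50 left out chr10:34000001-38000000, with 90 H3K27ac and 32 H3K4me3 intervals, which had like values. There 75% of H3K4me3 intervals overlapped H3K27ac, 6.67% and 18.75% lay near a protein-coding start, and the ratio of the marks was 2.81. These ranks describe 1 library per mark, and the number of intervals was among the values on which the window was chosen.

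**Figure D5:**
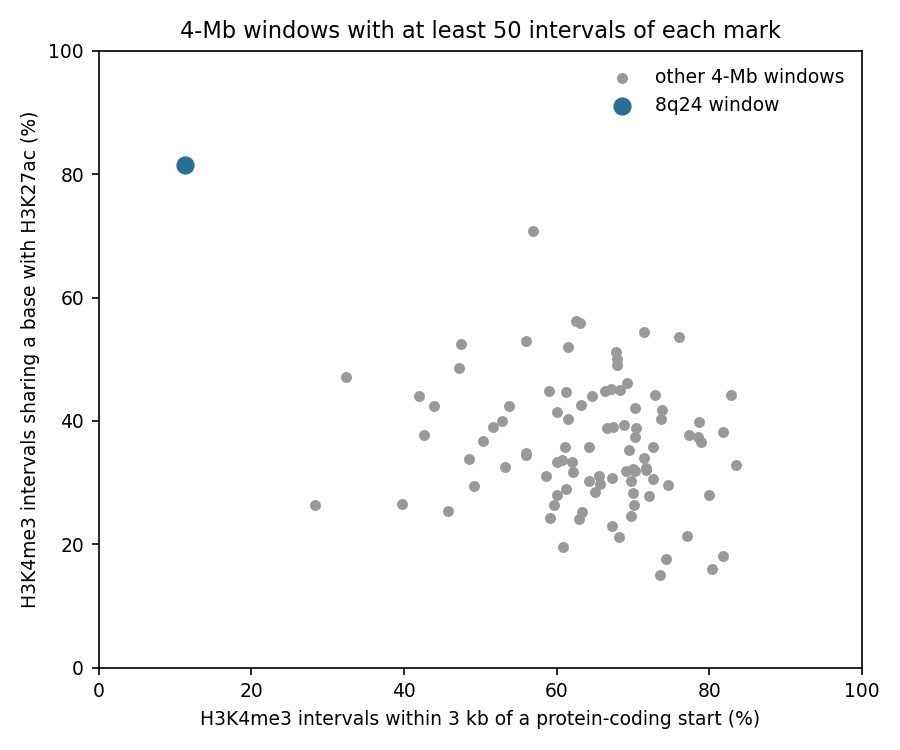
Each point is a 4-Mb window with at least 50 intervals of each mark (97 in all), with the percent of its H3K4me3 intervals within 3 kb of a protein-coding start on the x axis and the percent that share a base with H3K27ac on the y axis. The 8q24 window lies at 11.3% and 81.4%, where the medians of all are 66.4% and 35.7%. Windows with fewer than 50 intervals of a mark are not drawn.

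Sequence composition was read from 300 bases at the centre of each interval. The median GC content of H3K27ac intervals was 50.7% (50 to 51.7) in the window, 55.3% in the rest of chromosome 8 and 56.0% on other chromosomes. For H3K4me3 it was 50% (49.0 to 51.7), 58.0% and 59.7%. The ratio of observed to expected CpG at H3K4me3 was 0.215 (0.169 to 0.261), against 0.518 and 0.550. Restricted to intervals over 3 kb from a protein-coding start, it was 0.195 (0.154 to 0.248), against 0.307 and 0.348. The H3K4me3 intervals of the window were thus poorer in CpG, also when those at protein-coding starts were left out of both groups. Other transcript starts were not left out. They lay within 1 kb of 13 of these 86 intervals, against 104 of 344 in the rest of chromosome 8, and their part was not tested.

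In the same 300 bases, 10 short motifs were searched on both strands, none of which contains another. They were AP-1 (TGANTCA), TEAD (GGAATG), FOXA (TGTTTAC), NKX2-1 (CACTTG), the E-box (CACGTG), ETS (CCGGAAG), C/EBP (TTGCNNAA), KLF/SP (GGGCGGG), CTCF (AGGGGGC) and TCF (CTTTGAT). Among H3K27ac intervals over 3 kb from a protein-coding start, AP-1 letters occurred in 8.16% (5.30 to 11.9) in the window, 7.49% in the rest of chromosome 8 and 5.46% on other chromosomes. TEAD letters occurred in 16.3% (12.3 to 21.1), 12.4% and 14.0%. For both, and for FOXA, NKX2-1, the E-box, C/EBP and TCF, the window's 95% interval contained the shares of both other groups. The GC-rich KLF/SP letters were in 3.06% (1.41 to 5.73), 7.003% and 6.49%, and the CTCF letters in 3.74% (1.88 to 6.60), 8.63% and 8.95%. ETS letters were in 1 of 294 (0.340%, 0.00861 to 1.88), against 2.28% and 2.21%. GC content differed between the same groups, and its part in these shares was not tested.

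As a check of the cell type, 9 of 14 marker genes of lung and epithelium had an interval of either mark within 1 kb of their start, among them NKX2-1, KRT7, KRT8, KRT18, KRT19, CDH1 and ELF3 with both marks. Over all chromosomes 43.2% of protein-coding starts had an interval of either mark. SFTPA1, SFTPB and SFTPC, which encode surfactant proteins, and NAPSA and CLDN4 had none. Of 10 annotated marker genes of other cell types, 0 had one.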

How the data were processed

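ChIP-seq peak lists of H3K27ac and H3K4me3 in H2087 cells were used (3 samples, 1 library per mark). The input had no list and was not analysed here, and DNA copy number was not measured. Per the study's methods and the submitters' processing notes, the authors aligned reads to hg19 with Bowtie 1.1.1 and called peaks with MACS2 2.1.0. The methods name the input as material for normalization. Peak-calling thresholds, duplicate handling and whether the input was the control in MACS2 are not given in the sources used here. The deposited lists hold a position, a name and an unlabelled value, which was read from its range as the −log10 q of the authors' caller, because its minimum was 1.303 and 1.306 against 1.301 for a q of 0.05. It is not comparable between libraries of unknown depth. Starts were counted from 0 and converted to 1-based positions.

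An interval listed once per summit (25275 and 20282 entries) was kept once with its highest value. Gene starts were the outer 5′ ends of 64449 genes of GENCODE 44 mapped to GRCh37, of which 20163 are protein-coding. Each interval was called shared if at least 1 bp overlapped. Shares carry Clopper-Pearson intervals, density ratios exact binomial intervals and medians order-statistic intervals at 95%, treating neighbouring intervals as independent. The analysis used Python 3.11.15, numpy 2.4.6, pandas 2.3.3, scipy 1.17.1 and matplotlib 3.10.9, and the functions were tested on simulated data.

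The genes described were the 7 protein-coding genes that overlap the window, and 22 listed names, of which 14 were annotated there. CASC21, CCAT1, PCAT2, LINC00976, LINC00977, LINC01263, MIR1204 and MIR1206 were not matched. Named intervals were, for each mark, the 5 strongest by −log10 q and the 5 of greatest width, those within 2 kb of MYC and those at the window limits. Stitched regions were the 3 with the longest length under intervals, and bins the 3 fullest. The members and the lists were chosen with earlier results of these data known. No sequence of the region is printed.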

Additional observations from a re-analysis of the deposited data

How the results depend on the processing

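No paired analysis was possible because there was only 1 library for each mark, and for the same reason no replicate could be left out. Of 73 recomputed values for 13 results, 35 lay inside the 95% interval of the reported value, or within a factor of 1.5 for the stitched length, which has no interval. The other 38 moved outside, and 0 changed direction where a direction was called. The assembly gaps and the block of MYC were left out as alternatives chosen after seeing the data.

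Counting every summit entry gave density ratios of 13.9 (H3K27ac) and 5.35 (H3K4me3), width ratios of 1.64 and 1.54, −log10 q ratios of 1.32 and 1.29, an H3K27ac overlap of 38.6% and shares near a protein-coding start of 7.86% and 30.4%. Keeping only intervals at or above their list's median −log10 q gave a density ratio of 14.3 for H3K27ac, −log10 q ratios of 1.25 and 1.36, an H3K4me3 width ratio of 1.23, an H3K4me3 share near a start of 21.2% and a longest stitched length of 16.1 kb. Merging within 1 kb gave density ratios of 5.89 and 2.94, H3K27ac ratios of 1.64 (width) and 1.56 (−log10 q) and a stitched length of 56.5 kb. Against the 4 Mb on each side, the density ratios were 4.81 and 2.66, the H3K27ac −log10 q ratio 1.31 and the H3K4me3 width ratio 0.823. Against the median 4-Mb window of chromosome 8, the density ratios were 14.3 and 5.71. Without the block of MYC, density ratios were 5.66 and 1.70, the H3K4me3 −log10 q ratio 1.41, the H3K27ac overlap 19.5% and the shares near a start 8.05% and 23.7%. Requiring 50% coverage gave an H3K27ac overlap of 16.2%, and starts of all genes gave 13.3% of H3K27ac intervals near a start. Protein-coding starts alone were marked in 85.7% for both marks, and joining within 5 or 20 kb instead of 10 kb gave stitched lengths of 19.5 or 65.1 kb. The H3K4me3 width ratio lay on either side of 1 across these settings, and its reported value, 0.934, had an interval of 0.829 to 1.13. The H3K4me3 overlap ranged from 73.2% to 87.3%. The cause of these moves was not tested.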
